A study of Mus musculus with 8 samples.

Results

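Endothelial cells line the dense capillaries of the pancreatic islet, and their marker genes were followed here in islets of mice with and without a deletion of Nfatc2 targeted to beta cells. The list holds 40 genes named as endothelial markers, taken by gene symbol; the list was drawn up with earlier results of these data known. It leaves out the VEGF receptors and the adhesion molecules Selp, Sele and Icam2. Of the 40, 37 were measured among the 16333 genes of the tables. Cldn5 and Hhip had no row, and neither had Eltd1, an older symbol of Adgrl4, which was measured.

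Endothelial identity rests on transcription factors of the ETS family, on SOX factors of the SoxF group and on their targets, which include junction proteins, surface mucins and receptors. Islet capillaries are fenestrated, with pores closed by diaphragms, and beta cells maintain them by secreting VEGF-A. Endothelial cells also respond to IL1β, TNFα and IFNγ.

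Islets came from 2 NFATc2βKO and 2 wild-type adult mice of the strain given as Agouti/C57BL6. The knockout (KO) was induced in vivo by tamoxifen in cells that express INS-1, so endothelial cells are not the cells the labels name as targeted, and the driver of the recombinase is not named. Wild-type (WT) mice had also received tamoxifen, with no knockout resulting. The protocol names purchased C57BL/6 animals beside the transgenic line as islet sources, and breeding origin and genotype cannot be told apart. Islets were freed with collagenase, separated on Ficoll, picked by hand and kept overnight in 5.5 mM glucose. Islets of each mouse were then split. Treated cultures received 11 mM glucose for 2 h with IFNγ (50 ng/mL), IL1β (5 ng/mL) and TNFα (10 ng/mL), so cytokines and raised glucose cannot be told apart. Untreated cultures stayed in culture for the same time. The 4 groups, KO with cytokines, WT with cytokines, KO untreated and WT untreated, hold 2 libraries each, 1 of a female and 1 of a male mouse, as read from Xist and Uty. Pairs of values below give the female mouse first and the male mouse after it.

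Each library had 14567804 to 26873417 reads in the 16308 genes for which the read numbers of single libraries were solved from the authors' group means. Unless given as RPKM or on the log2 scale, values are normalized counts, that is reads divided by the size factor of the library. Nfatc2 itself had 987 and 899 normalized counts in KO islets with cytokines, against 1646 and 1144 in WT islets with cytokines. Untreated, it had 1167 and 842 in KO islets, against 1557 and 1269.9 in WT islets. Both KO libraries lay below both WT libraries under each treatment, and the authors' deposited tables gave a log2 fold change of -0.56 ± 0.24 with cytokines (SE, adjusted p = 0.474) and -0.49 ± 0.23 untreated (SE, adjusted p = 0.903). Islets are a mixture of cell types, and in whole-islet RNA fewer cells of a type and less RNA per cell cannot be told apart.

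All 37 measured members had reads in every library, and 36 averaged at least 50 normalized counts. Levels between genes are given as RPKM, reads scaled to exon length and to library depth, averaged over the 8 libraries. The highest was Nostrin, a protein that moves the endothelial nitric oxide synthase away from the plasma membrane, at 16.2 RPKM. It was followed by Cdh5, the adherens junction protein VE-cadherin, at 15.5 RPKM, and by Plvap, the protein of the diaphragms of fenestrae, at 13.9 RPKM. The ranges of these 3 over libraries overlap. Eng, Cd93, S1pr1 and Adgrf5 had 11.4, 10.8, 10.4 and 10.1 RPKM. The 6 members below 1 RPKM were Tspan18, Arhgef15, Clec14a, Sox17, Vwf and Tal1, at 0.664 to 0.367 RPKM. Within the list, the junction genes Cdh5 and Pecam1 (8.07 RPKM) were among the 8 highest members per length, which does not test the label of the list. The 37 members together took 0.0599% to 0.111% of the reads of a library.

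**Figure D1:**
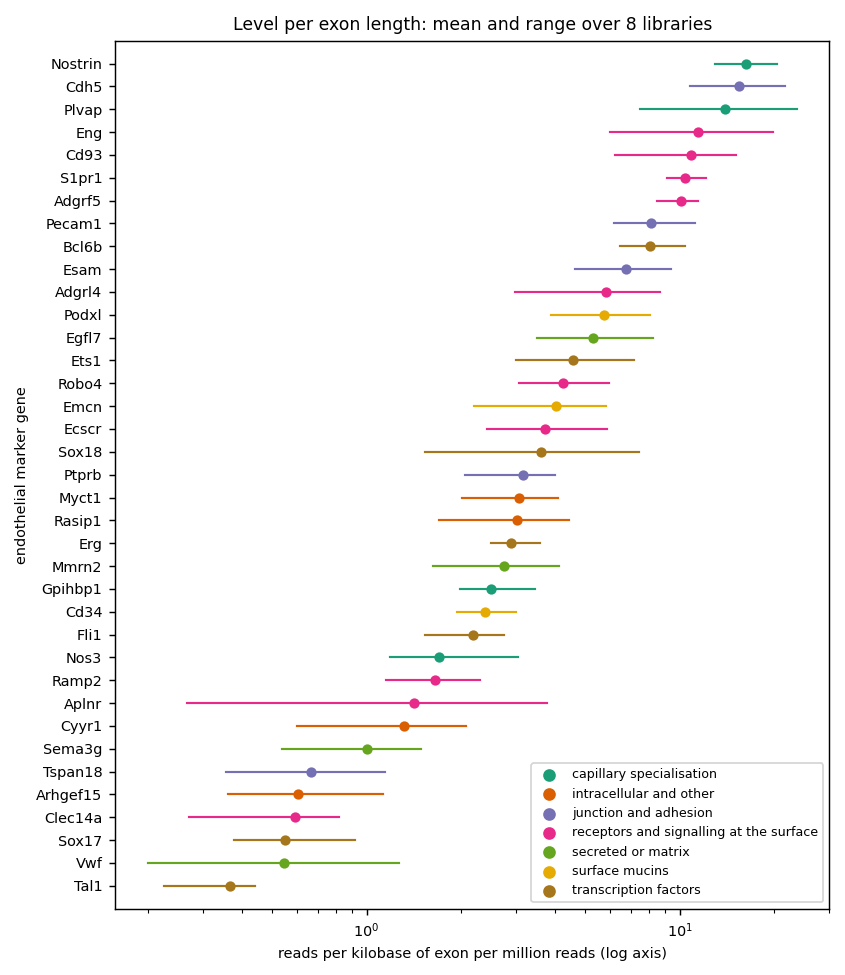
Level of each measured endothelial marker gene per exon length, in RPKM on a log axis. Points are means over the 8 libraries, lines run from the lowest to the highest library, and colours give the role. Nostrin, Cdh5 and Plvap lead at 16.2, 15.5 and 13.9, and Aplnr spans the widest range, 0.27 to 3.78.

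With cytokines, junction proteins, receptors, a surface mucin and secreted proteins of endothelium were called lower in KO than in WT islets. In the authors' deposited table, 10 of the 37 members were called lower and 1 was called higher at an adjusted p below 0.05, where 0.998% of all 16333 genes were called, 0.184% lower and 0.814% higher. The table called 30 genes lower in all, so 10 of those 30 were members of the list. The members called lower were Eng, Emcn, Pecam1, Adgrl4, Robo4, Cyyr1, Cdh5, Egfl7, Ptprb and Sema3g, and Nostrin was the 1 called higher. The median log2 fold change over the 37 members was -0.65, with 34 below 0 and 3 above, while over all genes the median was -0.0032 with 49.2% above 0. At an unadjusted p below 0.05, 18 members were lower, against 2.24% of all genes, and 1 was higher, against 3.64%.

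Other fits, on the recovered reads, gave other counts. A limma fit without a replicate block called 0 of the 37 members (smallest adjusted p 0.159, 22 members at an unadjusted p below 0.05, against 7.23% of all genes) and 2 of 16308 genes, 0.0123%. The median of that fit was -0.66, and it was -0.41 without the male KO library with cytokines. With mouse sex as a replicate block, limma called 13 members, 12 lower and Nostrin higher, against 3.6% of all genes; these are the 11 of the authors' table with Aplnr and Esam. That fit treats the 2 cultures of a mouse as independent, and what this does to its p-values was not measured. In it, the number of members called fell in most fits that left 1 library out, and the number over all genes changed too. Such fits leave 1 library in a group, so only medians are given. The median over members was -0.51 without the male KO library with cytokines and -0.82 without the female one. It was -0.57 without the female WT library with cytokines, -0.74 without the male one and -0.65 without either untreated WT library.

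In single libraries, 27 members had both KO libraries below both WT libraries with cytokines, against 14.2% of all genes. Nostrin was the 1 member with both KO libraries above both WT libraries, against 14.7% of all genes. Compared within sex, 31 members were lower in the KO mouse in both the female and the male pair, and Fli1 and Nostrin were higher in both. The share of all genes lower or higher in both pairs was not computed. The median log2 ratio over members was -0.59 between the females and -0.71 between the males. Over all genes, 50.5% were higher in the KO mouse between the females and 49.8% between the males.

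**Figure D2:**
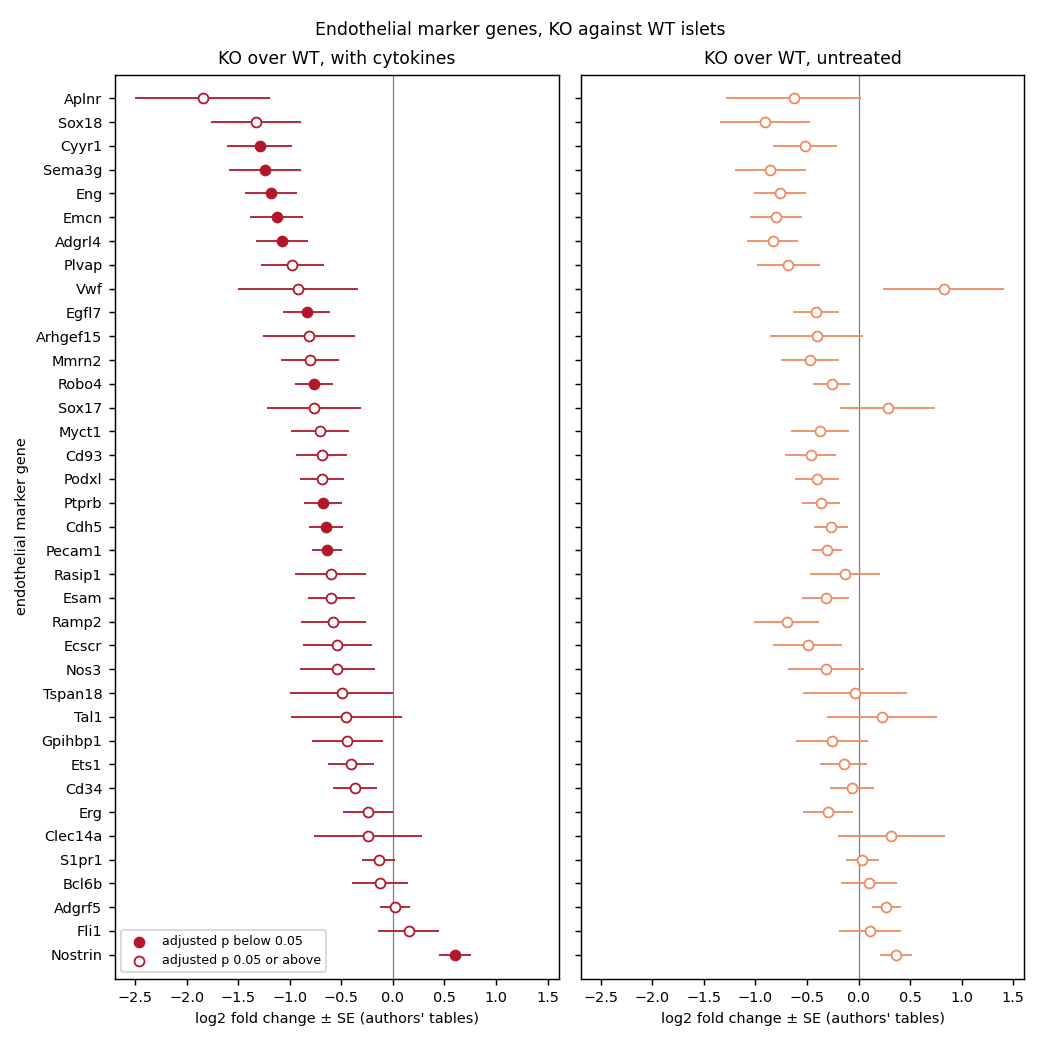
Log2 fold change of each measured member, KO over WT islets, with cytokines on the left and untreated on the right, from the authors' deposited tables. Bars are standard errors and filled points passed an adjusted p below 0.05. With cytokines 34 of 37 points lie below 0 and 11 are filled, and untreated 28 lie below 0 and 0 are filled.

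Of the 5 junction and adhesion genes measured, 3 were called lower and none higher. Cdh5 had 1134 and 900.0 in KO islets with cytokines, against 1720.2 and 1463 in WT islets with cytokines. Pecam1, the immunoglobulin-type adhesion molecule at endothelial contacts, had 841 and 759.9 in KO islets with cytokines, against 1317 and 1173 in WT islets with cytokines. Ptprb, the receptor phosphatase VE-PTP that acts on VE-cadherin and the angiopoietin receptor, had 693 and 545 in KO islets with cytokines, against 988 and 983 in WT islets with cytokines. In these 3 genes the KO and WT libraries did not overlap. The log2 fold changes in the authors' deposited table were -0.65 ± 0.17 for Cdh5, -0.64 ± 0.14 for Pecam1 and -0.67 ± 0.18 for Ptprb (SE), with adjusted p-values of 0.0154, 0.00245 and 0.0301. Esam, a further junctional adhesion molecule, had 344 and 264 in KO islets with cytokines, against 509 and 408 in WT islets with cytokines. Its libraries did not overlap either, and its log2 fold change of -0.60 ± 0.23 (SE) missed the threshold in the authors' deposited table (adjusted p = 0.337) and passed it in limma with sex as a block (adjusted p = 0.0294). Tspan18, a tetraspanin, had 136 and 57.7 in KO islets with cytokines, against 177 and 95.0 in WT islets with cytokines. Its female KO library lay above its male WT library, and it was not called.

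Among the surface mucins, Emcn (endomucin), a marker of capillaries and veins, had 304 and 246 in KO islets with cytokines, against 595 and 607 in WT islets with cytokines. Every WT library was above both KO libraries, and the authors' deposited table gave a log2 fold change of -1.13 ± 0.25 (SE, adjusted p = 0.0023), which is 0.457 times the WT level. Podxl (podocalyxin), a sialomucin of the luminal surface, had 572 and 424 in KO islets with cytokines, against 835 and 769.8 in WT islets with cytokines. The groups were separate, but the log2 fold change of -0.69 ± 0.21 (SE) was not called in the authors' deposited table (adjusted p = 0.0849). Cd34, a sialomucin that blood progenitors carry too, had 322 and 282 in KO islets with cytokines, against 413 and 368 in WT islets with cytokines. Its log2 fold change in the authors' deposited table was -0.37 ± 0.21 (SE, adjusted p = 1), and an exon of it overlaps an antisense gene; whether reads keep strand is not stated.

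Receptors held the gene with the smallest p of the list. Eng (endoglin), a co-receptor for TGF-β family ligands, had 613 and 481 in KO islets with cytokines, against 1519 and 965 in WT islets with cytokines. Both KO libraries lay below both WT libraries, by log2 ratios of -1.31 for the females and -1.0 for the males, and the authors' deposited table gave -1.18 ± 0.25 (SE, adjusted p = 0.00094). An exon of Eng overlaps the gene Fpgs on the opposite strand. Adgrl4, an adhesion G-protein-coupled receptor of angiogenic endothelium, had 398 and 271 in KO islets with cytokines, against 622 and 784 in WT islets with cytokines. Robo4, the endothelial roundabout receptor, had 326 and 323 in KO islets with cytokines, against 596 and 509 in WT islets with cytokines. Both were separate between genotypes, with log2 fold changes of -1.08 ± 0.25 (SE, adjusted p = 0.00429) and -0.77 ± 0.18 (SE, adjusted p = 0.00506) in the authors' deposited table.

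Aplnr, the apelin receptor, varied most between libraries of all members, with an SD of 1.09 on the log2 scale over the 8 libraries. It had 87.5 and 19.5 in KO islets with cytokines, against 264 and 117 in WT islets with cytokines. The groups did not overlap and the log2 fold change was the lowest of the list, -1.84 ± 0.66 (SE), yet it was not called in the authors' deposited table (adjusted p = 0.224); limma with sex as a block called it (adjusted p = 0.027). Cd93, a receptor that binds multimerin-2 of the matrix, had 1418 and 822 in KO islets with cytokines, against 1909 and 1706 in WT islets with cytokines. It was separate between genotypes, with a log2 fold change of -0.69 ± 0.25 (SE, adjusted p = 0.226) in the authors' deposited table. Clec14a, which binds the same matrix protein, had 62.2 and 24.6 in KO islets with cytokines, against 50.0 and 50.8 in WT islets with cytokines, with the groups overlapping. Ramp2, which makes the calcitonin-like receptor an adrenomedullin receptor, had 105 and 75.6 in KO islets with cytokines, against 143 and 125 in WT islets with cytokines. Ecscr, a regulator of endothelial chemotaxis and survival, had 115 and 104 in KO islets with cytokines, against 193 and 127 in WT islets with cytokines. Both were separate between genotypes, and neither was called. An exon of Ramp2 overlaps the measured gene Vps25 on the same strand.

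Log2 fold changes near 0 were found for S1pr1 and Adgrf5. S1pr1, the sphingosine-1-phosphate receptor that stabilises endothelial barriers, had 608 and 606 in KO islets with cytokines, against 697 and 641 in WT islets with cytokines. The log2 fold change was -0.14 ± 0.16 (SE, adjusted p = 1) in the authors' deposited table, and S1pr1 had the smallest SD of the members over libraries, 0.11 on the log2 scale. Adgrf5, an adhesion G-protein-coupled receptor that lung epithelium also carries, had 1687 and 1850.1 in KO islets with cytokines, against 1701 and 1795 in WT islets with cytokines. The KO and WT libraries of Adgrf5 overlapped, while those of S1pr1 did not, and the authors' deposited table gave 0.02 ± 0.14 for Adgrf5 (SE, adjusted p = 1).

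All 4 secreted or matrix members had a log2 fold change below 0 with cytokines, from -1.24 to -0.80, and 2 were called. Egfl7, a secreted vascular protein whose gene also holds a microRNA, had 291 and 248 in KO islets with cytokines, against 557 and 405 in WT islets with cytokines. Sema3g, a secreted semaphorin, had 57.1 and 48.4 in KO islets with cytokines, against 128 and 120.0 in WT islets with cytokines. Both were separate between genotypes, with log2 fold changes of -0.84 ± 0.23 (SE, adjusted p = 0.0277) and -1.24 ± 0.35 (SE, adjusted p = 0.0397) in the authors' deposited table. An exon of Egfl7 overlaps Agpat2 on the opposite strand. Mmrn2 (multimerin-2) had 181 and 128 in KO islets with cytokines, against 309.5 and 229 in WT islets with cytokines, and its log2 fold change of -0.80 ± 0.28 (SE) was not called in the authors' deposited table (adjusted p = 0.217). Vwf, von Willebrand factor of veins and larger vessels, had 212 and 63.7 in KO islets with cytokines, against 387 and 133 in WT islets with cytokines. The female KO library lay above the male WT library.

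The genes of capillary specialisation split. Nostrin had 752 and 740.4 in KO islets with cytokines, against 483 and 499.9 in WT islets with cytokines. Both KO libraries were above both WT libraries, opposite to the 10 members called lower, and the authors' deposited table gave 0.60 ± 0.15 (SE, adjusted p = 0.013), 1.52 times the WT level. Plvap had 453 and 295 in KO islets with cytokines, against 888 and 582 in WT islets with cytokines. It was separate between genotypes, and its log2 fold change of -0.98 ± 0.31 (SE) missed the threshold in the authors' deposited table (adjusted p = 0.0961). Nos3, the endothelial nitric oxide synthase, had 145 and 110.4 in KO islets with cytokines, against 238 and 132 in WT islets with cytokines. Gpihbp1, which carries lipoprotein lipase across capillary endothelium, had 108 and 104 in KO islets with cytokines, against 134 and 153 in WT islets with cytokines. Neither of these was called, and the Nos3 libraries overlapped between genotypes.

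None of the 7 transcription factors was called in the authors' deposited table, with 1 at an unadjusted p below 0.05. That 1 was Sox18, a SoxF factor of developing vessels, with 86.3 and 49.2 in KO islets with cytokines, against 227 and 112 in WT islets with cytokines and a log2 fold change of -1.33 ± 0.44 (SE, adjusted p = 0.143). Its KO and WT libraries did not overlap. Sox17, a SoxF factor of arteries, had 44.4 and 35.7 in KO islets with cytokines, against 82.5 and 53.3 in WT islets with cytokines, also with separate groups. The ETS factor Erg, which keeps endothelial genes active, had 183 and 176 in KO islets with cytokines, against 199.8 and 224 in WT islets with cytokines. The ETS factor Ets1 had 761 and 731 in KO islets with cytokines, against 1148 and 829.8 in WT islets with cytokines. Both were separate between genotypes, with log2 fold changes of -0.24 ± 0.24 and -0.41 ± 0.23 (SE) in the authors' deposited table. The ETS factor Fli1 had 161 and 190.2 in KO islets with cytokines, against 149 and 167 in WT islets with cytokines, with groups that overlapped. Bcl6b, a transcriptional repressor, had 629 and 505 in KO islets with cytokines, against 733 and 505 in WT islets with cytokines, again overlapping. Tal1, a basic helix-loop-helix factor of blood and endothelium and the lowest member per length, had 31.7 and 19.5 in KO islets with cytokines, against 31.5 and 37.5 in WT islets with cytokines. Ets1, Fli1 and Tal1 are also expressed by blood cells. Leukocyte marker genes leaned higher in KO islets, as given with the sums of the lists. Of 4 platelet and megakaryocyte genes, 1 had a log2 fold change above 0 with cytokines and 3 untreated. A part of blood cells in the values of these 3 factors was not tested.

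All 4 genes placed under intracellular and other roles had a log2 fold change below 0 with cytokines. Cyyr1, a small cysteine- and tyrosine-rich membrane protein, had 178 and 106 in KO islets with cytokines, against 349.7 and 339.9 in WT islets with cytokines. It was separate between genotypes, with -1.29 ± 0.31 (SE, adjusted p = 0.00742) in the authors' deposited table. Rasip1, a Ras-interacting protein needed for the vessel lumen, had 179 and 108 in KO islets with cytokines, against 268 and 166 in WT islets with cytokines. Myct1 had 139.6 and 114 in KO islets with cytokines, against 181 and 229.9 in WT islets with cytokines. Arhgef15, a guanine nucleotide exchange factor, had 69.8 and 51.8 in KO islets with cytokines, against 138 and 75.8 in WT islets with cytokines. These 3 were not called, and the Rasip1 libraries overlapped between genotypes.

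**Figure D3:**
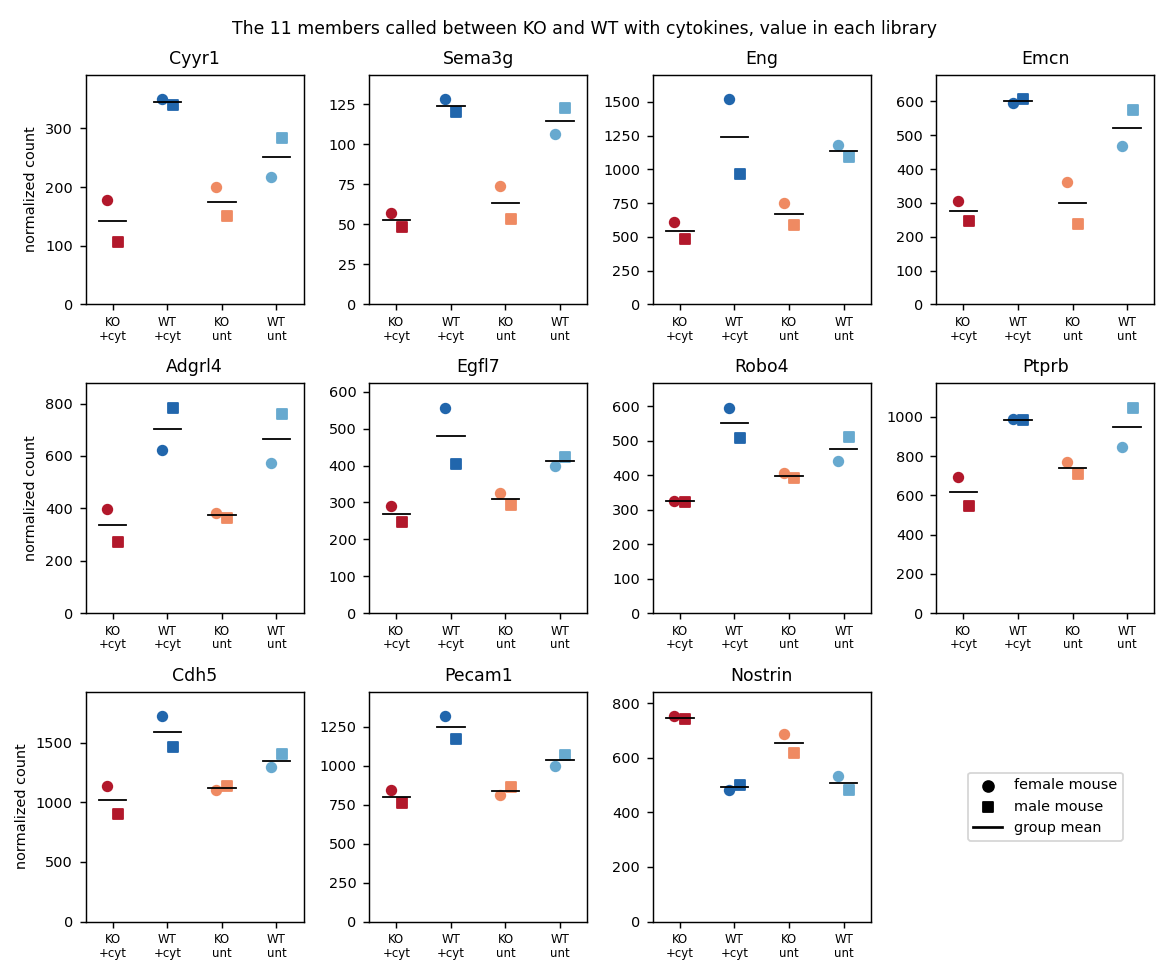
Normalized count in each library of the 11 members called between KO and WT islets with cytokines, with the axis starting at 0. Circles are female mice, squares male mice and lines group means (n = 2). With cytokines both KO points lie below both WT points for 10 genes, Eng for example at 613 and 481 in KO islets against 1519 and 965 in WT islets, and above them for Nostrin, at 752 and 740.4 in KO islets against 483 and 499.9 in WT islets.

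Promoters are shown for Eng, Emcn and Adgrl4, the members called lower with the smallest p that have an entry in the RefSeq promoter table (build GRCm38.p6), and for Nostrin, the member called higher. The table matched 15 of the 37 measured members, and each window covers 250 bases before and 50 bases from the start site on. Capitals mark the ETS core motifs AGGAAG and CGGAAG on either strand, and the rest is in lower case, written 5′ to 3′ on the strand of the gene.
Eng, chr2:32646345-32646644 (+ strand): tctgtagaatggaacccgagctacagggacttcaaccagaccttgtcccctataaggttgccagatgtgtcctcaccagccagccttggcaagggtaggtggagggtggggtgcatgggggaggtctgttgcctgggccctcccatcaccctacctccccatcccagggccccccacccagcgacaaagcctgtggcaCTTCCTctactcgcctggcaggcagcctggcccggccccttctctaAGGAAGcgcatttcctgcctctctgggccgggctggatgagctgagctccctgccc
Emcn, chr3:137340828-137341127 (+ strand): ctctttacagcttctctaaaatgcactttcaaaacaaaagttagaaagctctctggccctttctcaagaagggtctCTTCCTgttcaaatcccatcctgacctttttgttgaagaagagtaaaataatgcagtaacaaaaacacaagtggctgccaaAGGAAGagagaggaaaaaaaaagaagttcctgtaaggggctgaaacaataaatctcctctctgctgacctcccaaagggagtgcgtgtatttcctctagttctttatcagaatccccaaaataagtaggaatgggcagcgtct
Adgrl4, chr3:151437632-151437931 (+ strand): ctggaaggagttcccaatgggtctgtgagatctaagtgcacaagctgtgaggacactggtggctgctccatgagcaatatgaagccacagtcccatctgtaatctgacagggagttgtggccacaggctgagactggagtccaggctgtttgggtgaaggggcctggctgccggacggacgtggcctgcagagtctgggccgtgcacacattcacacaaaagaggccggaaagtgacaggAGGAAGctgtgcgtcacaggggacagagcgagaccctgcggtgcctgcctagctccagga
Nostrin, chr2:69135550-69135849 (+ strand): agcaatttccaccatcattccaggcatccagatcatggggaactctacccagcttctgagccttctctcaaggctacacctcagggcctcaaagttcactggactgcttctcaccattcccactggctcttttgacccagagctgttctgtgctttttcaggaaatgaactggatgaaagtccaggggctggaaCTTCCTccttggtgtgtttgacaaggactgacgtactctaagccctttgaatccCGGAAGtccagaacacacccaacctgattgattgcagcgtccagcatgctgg
Eng and Emcn hold AGGAAG 2 times each, Adgrl4 once, and Nostrin holds AGGAAG and CGGAAG once each. Over the members, AGGAAG was found on either strand in 12 of 15 promoters, against 35.1% of 27018 promoters of the same length, and in all 7 of the members called lower that have an entry. CGGAAG was found in 1 of 15, against 17.2%. The SOX core ACAATG was found in 0 of 15, against 12.7%, and the E-box CANNTG in 9 of 15, against 72.1%. The motifs were searched on both strands, the E-box can overlap the others, and a match is a description of letters.

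Untreated, most members also had negative log2 fold changes. In the authors' deposited table none (0 of 37) was called, against 0.41% of all genes, and 9 were lower at an unadjusted p below 0.05, against 1.52% of all genes, and 1 was higher, against 3.37%. Of the 37 members 28 were below 0, while 49% of all genes were above 0. The median log2 fold change over members was -0.32. In limma with sex as a replicate block this median was -0.13 without the male and -0.48 without the female untreated WT library. Both KO libraries lay below both WT libraries for 23 members, against 18.3% of all genes, and above them for 6, against 18.6%. The 6 were Adgrf5, Clec14a, Nostrin, Sox17, Tal1 and Vwf. The lower side was separate between genotypes under both treatments for 22 members, against 7.16% of all genes. Untreated and treated islets of a genotype come from the same mice, so the 2 treatments are not independent replicates of the genotype difference. Limma with sex as a replicate block called 1 member, Eng, against 1.7% of all genes. Without any 1 of the 4 untreated libraries that call was lost, and fewer genes were called over all genes too. Such fits leave 1 library in a group, so the loss cannot be read as a result about the members. Limma without a block called 0 of 37 with 10 at an unadjusted p below 0.05, against 5.54% of all genes.

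The 2 smallest p-values untreated were those of Adgrl4 and Emcn. Adgrl4 had 383 and 364 in untreated KO islets, against 573 and 759 in untreated WT islets. Emcn had 361 and 237 in untreated KO islets, against 468 and 574 in untreated WT islets. Their libraries were separate, and the authors' deposited table gave -0.83 ± 0.25 (SE, adjusted p = 0.124) and -0.80 ± 0.25 (SE, adjusted p = 0.165). Eng had 750.4 and 589 in untreated KO islets, against 1176 and 1091 in untreated WT islets, a log2 fold change of -0.76 ± 0.25 in the authors' deposited table (SE, adjusted p = 0.222) and an adjusted p of 0.0359 in limma with sex as a block. All 10 members called lower with cytokines also had a negative untreated log2 fold change. Sema3g had 73.9 and 53.2 in untreated KO islets, against 106 and 123 in untreated WT islets. Cdh5 had 1100.3 and 1139 in untreated KO islets, against 1296 and 1402 in untreated WT islets. Pecam1 had 809 and 865 in untreated KO islets, against 997 and 1070.5 in untreated WT islets. These were separate between genotypes, with the male WT mouse the highest library of each.

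Among the other members called with cytokines, Ptprb had 769 and 708 in untreated KO islets, against 848 and 1046 in untreated WT islets. Robo4 had 406 and 393 in untreated KO islets, against 443 and 512 in untreated WT islets. Egfl7 had 326 and 293 in untreated KO islets, against 399 and 424 in untreated WT islets. In all 3 the KO libraries lay below the WT libraries. Cyyr1 had 200.3 and 150.1 in untreated KO islets, against 217 and 284 in untreated WT islets. Esam had 359 and 298 in untreated KO islets, against 424 and 394 in untreated WT islets. Nostrin had 688 and 617 in untreated KO islets, against 532 and 483 in untreated WT islets, so its higher level in KO islets was seen without cytokines too, with 0.36 ± 0.15 (SE, adjusted p = 0.673) in the authors' deposited table.

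Plvap had 473 and 326 in untreated KO islets, against 578 and 703 in untreated WT islets. Podxl had 535 and 456 in untreated KO islets, against 586 and 727 in untreated WT islets. Cd93 had 1247 and 1034 in untreated KO islets, against 1492 and 1654 in untreated WT islets. The KO libraries of these luminal genes again lay below the WT libraries, and none was called. Aplnr had 81.0 and 45.8 in untreated KO islets, against 108 and 88.3 in untreated WT islets. Mmrn2 had 174 and 181 in untreated KO islets, against 223 and 268 in untreated WT islets. Sox18 had 78.3 and 71.7 in untreated KO islets, against 144 and 138 in untreated WT islets. The groups were separate for each of these. Vwf had 190.5 and 171 in untreated KO islets, against 117 and 87.1 in untreated WT islets, with the KO libraries above the WT libraries. Ets1 had 705 and 504 in untreated KO islets, against 641 and 693 in untreated WT islets. Bcl6b had 684 and 497 in untreated KO islets, against 629 and 471 in untreated WT islets. Neither Ets1 nor Bcl6b was separate between genotypes. Myct1 had 163 and 139 in untreated KO islets, against 173 and 218 in untreated WT islets. Rasip1 had 195 and 179.7 in untreated KO islets, against 215 and 195 in untreated WT islets, overlapping between genotypes.

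Of the members not yet given untreated, 4 had both KO libraries above both WT libraries. Adgrf5 had 1859 and 2049 in untreated KO islets, against 1474 and 1766 in untreated WT islets. Clec14a had 72.1 and 57.7 in untreated KO islets, against 47.9 and 56.2 in untreated WT islets. Sox17 had 45.4 and 60.6 in untreated KO islets, against 43.9 and 43.6 in untreated WT islets. Tal1 had 32.0 and 38.4 in untreated KO islets, against 30.6 and 29.8 in untreated WT islets. These 4 had negative or near-zero log2 fold changes with cytokines. Separate in the other direction were Erg, with 179.8 and 172 in untreated KO islets, against 187 and 244 in untreated WT islets, and Ramp2, with 74.8 and 78.4 in untreated KO islets, against 129 and 119 in untreated WT islets. The same held for Ecscr, with 112 and 84.3 in untreated KO islets, against 132 and 144 in untreated WT islets, and Arhgef15, with 71.2 and 46.6 in untreated KO islets, against 82.4 and 73.4 in untreated WT islets. S1pr1 had 597 and 615 in untreated KO islets, against 536 and 644 in untreated WT islets. Cd34 had 320.5 and 332 in untreated KO islets, against 294 and 386 in untreated WT islets. Gpihbp1 had 124 and 104 in untreated KO islets, against 98.4 and 173 in untreated WT islets, and Tspan18 had 113 and 73.9 in untreated KO islets, against 99.7 and 91.7 in untreated WT islets. The genotypes overlapped in these last genes.

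No member was called for a cytokine response in either genotype. In KO islets the authors' deposited table called 0 of 37 members, against 0.0429% of all genes, with 0 at an unadjusted p below 0.05, against 1.02%. The median log2 fold change was -0.12 with 27 members below 0, while 50.3% of all genes were above 0. The median of the limma fit in KO islets was -0.31 without the female and 0.061 without the male KO library with cytokines, and -0.27 without the male untreated KO library. In WT islets the authors' deposited table called 0 of 37, against 0.0122% of all genes, with 2 at an unadjusted p below 0.05, against 0.918%. The median log2 fold change was 0.21 with 34 members above 0, while 50.9% of all genes were above 0. The median of the limma fit in WT islets was 0.0899 without the female and 0.33 without the male WT library with cytokines, and 0.27 without the male untreated WT library. Limma with the mouse as a replicate block called 0 members in either genotype, against 0.331% of all genes in KO and 0.172% in WT islets. At an unadjusted p below 0.05 this fit had 8 members in KO islets, against 9.59% of all genes, and 7 in WT islets, against 11.4%. Over both genotypes in 1 limma fit with the mouse as a replicate block, 0 of 37 members were called, against 1.13% of all genes, with 3 at an unadjusted p below 0.05, against 17% of all genes, and a smallest adjusted p of 0.0804, that of Ets1.

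Ets1 was higher with cytokines in all 4 mice. It had 761 and 731 normalized counts in KO islets with cytokines, against 705 and 504 in untreated KO islets. In WT islets it had 1148 and 829.8 with cytokines, against 641 and 693 untreated. The authors' deposited tables gave 0.31 ± 0.25 in KO islets (SE, adjusted p = 1) and 0.57 ± 0.26 in WT islets (SE, unadjusted p = 0.0252, adjusted p = 1). Fli1 and Nos3 were the other 2 members higher in all 4 mice, and 0 were lower in all 4. The share of all genes with these patterns was not computed, so these counts are not a result about the members. Fli1 had 161 and 190.2 in KO islets with cytokines, against 152 and 119 in untreated KO islets, and 149 and 167 in WT islets with cytokines, against 104 and 147 in untreated WT islets. Nos3 had 145 and 110.4 in KO islets with cytokines, against 112 and 97.6 in untreated KO islets, and 238 and 132 in WT islets with cytokines, against 145 and 117 in untreated WT islets.

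Vwf had the highest cytokine fold change of the members in WT islets, with 387 and 133 normalized counts with cytokines, against 117 and 87.1 untreated, and a log2 fold change of 1.34 ± 0.67 in the authors' deposited table (SE, unadjusted p = 0.0441). In KO islets Vwf had 212 and 63.7 with cytokines, against 190.5 and 171 untreated. It was higher with cytokines in both WT mice, higher in the female KO mouse and lower in the male KO mouse. In KO islets the 2 smallest p-values were those of Ptprb and Robo4. Ptprb had 693 and 545 with cytokines, against 769 and 708 untreated, and Robo4 had 326 and 323 with cytokines, against 406 and 393 untreated. Both were lower with cytokines in both KO mice, with -0.26 ± 0.17 (SE, unadjusted p = 0.124) and -0.30 ± 0.21 (SE, unadjusted p = 0.144) in the authors' deposited table, and neither was called.

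By mouse, the median log2 ratio over the 37 members, cytokine over untreated culture, was 0.0080 in the KO female and -0.24 in the KO male, against 0.41 in the WT female and 0.048 in the WT male. Of the 37 members, 19 were higher with cytokines in the female KO mouse and 9 in the male KO mouse, against 36 in the female WT mouse and 22 in the male WT mouse. Over all genes, 51.4% and 48.2% were higher in the female and male KO mice, and 48.8% and 52.2% in the female and male WT mice. The male KO mouse held the lowest and the female WT mouse the highest of the 4 medians. The difference between genotypes of the cytokine response was called for 0 of 37 members from the deposited tables, against 0% of all genes, with 0 members at an unadjusted p below 0.05, against 0.22%. Its median was -0.33 on the log2 scale, with 33 members below 0. Over all genes its median was -0.0012, with 8222 below 0 and 8111 above. Limma with the mouse as a replicate block called 0, with 10 members at an unadjusted p below 0.05, against 4.4% of all genes, and a smallest adjusted p of 0.916. So the genotype difference being called with cytokines and not untreated is not shown to depend on the cytokines. Lower with cytokines in both KO mice and higher in both WT mice were 6 members, Adgrf5, Cyyr1, Esam, Myct1, Sox17 and Tal1, against 4.15% of all genes.

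**Figure D4:**
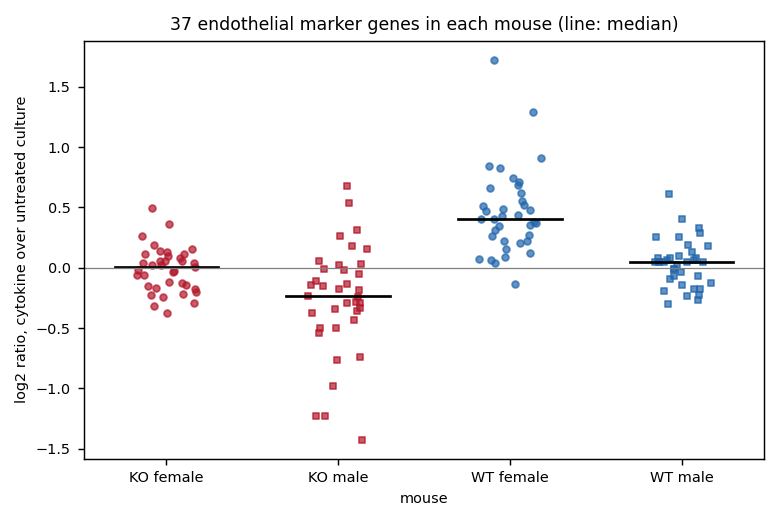
Log2 ratio of the cytokine-treated over the untreated culture for each of the 37 members in each mouse; black lines are medians and points are spread sideways for sight. The medians are 0.0080 and -0.24 in the KO mice, against 0.41 and 0.048 in the WT mice, and 36 of 37 points lie above 0 in the female WT mouse.

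Summed over the 37 members, KO islets with cytokines had 14428 and 11879 normalized counts, against 20883 and 17680.5 in WT islets with cytokines. Untreated KO islets had 14616 and 13241, against 15787 and 17439.6 in untreated WT islets. Both KO libraries lay below both WT libraries under each treatment. The log2 ratio of the group means, KO over WT, was -0.55 with cytokines and -0.25 untreated. With 2 libraries against 2, the exact two-sided permutation test cannot go below p = 0.33, which is the value of both comparisons.

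Marker genes of other cell types also differed between the genotypes, and their part in the endothelial result was not tested. For the calls below, the authors' deposited table called 0.184% of all genes lower and 0.814% higher with cytokines. Of 26 measured genes on a further endothelial list, 24 had a log2 fold change below 0 with cytokines, with a median of -0.60, and the authors' deposited table called 3, Flt1, Kdr and Notch4, all lower. Their sum was 10627 and 8119.7 in KO islets with cytokines, against 16436 and 12913 in WT islets with cytokines. All 5 measured lymphatic endothelial genes were below 0 with cytokines, with Reln called lower. Of the 5, 2 were lower at an unadjusted p below 0.05, against 2.24% of all genes. Their sum was 3210 and 2501 in KO islets with cytokines, against 3965 and 3003 in WT islets with cytokines. Most of it was Prox1 alone, with 2714 and 2098 in KO islets with cytokines, against 2864 and 2454 in WT islets with cytokines. Prox1 had a log2 fold change of -0.14 ± 0.20 (SE) in the authors' deposited table. Of 12 measured genes of mural cells, which wrap capillaries, Rgs4 was called lower. The sum of the 12 was 6695 and 5888 in KO islets with cytokines, against 9286 and 7768 in WT islets with cytokines. Most of this sum was Rgs4 alone, with 3777 and 3698 in KO islets with cytokines, against 6170 and 5385 in WT islets with cytokines. Of the 12 mural genes 7 had a log2 fold change above 0. All 13 leukocyte genes had a log2 fold change above 0 under both treatments, with 5 called higher with cytokines, and their sum was 5616 and 5531 in KO islets with cytokines, against 3469.8 and 2834 in WT islets with cytokines. Of 10 fibroblast genes 9 were above 0 with cytokines and 10 untreated; their sum was 13873 and 4929 in KO islets with cytokines, against 10414 and 1821 in WT islets with cytokines. Untreated, the fibroblast sum was 10529 and 5315 in KO islets, against 1658 and 1279 in WT islets. All 11 acinar genes were above 0, none of them called, and their sum took 0.726% and 0.126% of reads in KO islets with cytokines, against 0.169% and 0.0316% in WT islets with cytokines. Over 9 beta-cell genes other than the insulin and amylin genes, the sum was within 1.07 times between the KO and WT means under each treatment. Of 9 duct genes 6 were above 0 with cytokines, with Krt8 called higher. Of 4 platelet and megakaryocyte genes 1 was above 0 with cytokines, with none called. No measured gene of these lists was at 0 in any library, and of 7 erythroid genes none was measured.

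**Figure D5:**
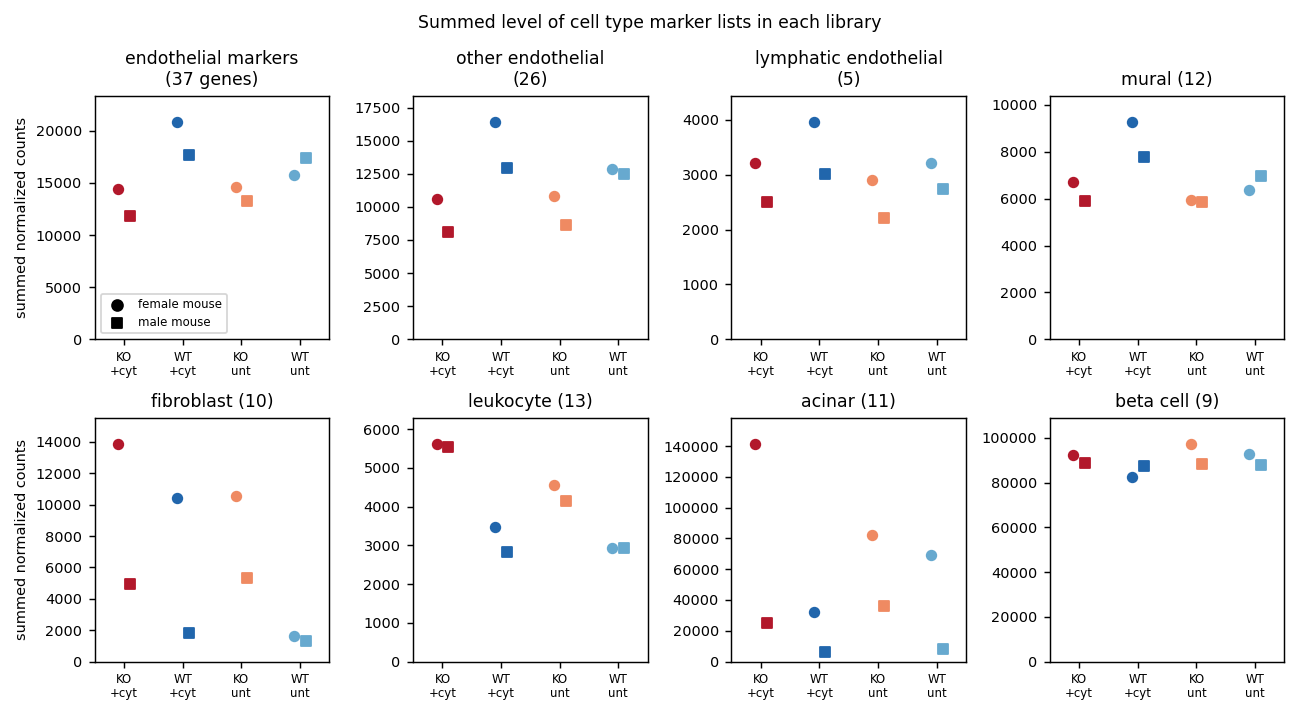
Summed normalized counts of 8 cell type marker lists in each library, with axes starting at 0; circles are female and squares male mice. The endothelial markers sum to 14428 and 11879 in KO islets with cytokines, against 20883 and 17680.5 in WT islets with cytokines, while the leukocyte sum is higher in KO islets and the KO and WT means of the beta-cell sum are within 1.07 times of each other.

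Vegfa, the capillary growth factor of beta cells and not on the list, was looked up after the members' values were known. It had 8826 and 8735 normalized counts in KO islets with cytokines, against 11152 and 10164 in WT islets with cytokines, and 9199 and 8688 in untreated KO islets, against 11136 and 10040.1 in untreated WT islets. Both KO libraries lay below both WT libraries under each treatment, with log2 fold changes of -0.28 ± 0.11 (SE, adjusted p = 0.381) and -0.24 ± 0.11 (SE, adjusted p = 0.81) in the authors' deposited tables, so it was not called.

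The members varied together to different degrees. Over the 8 libraries, the Pearson correlation of a member with the mean of the others (log2 values, standardised) had a median of 0.852 and was above 0.8 for 21 members, highest for Cdh5 at 0.968. It was below 0 for 3, Fli1 at -0.15, Adgrf5 at -0.40 and Nostrin at -0.81. The libraries share mice in pairs and 2 genotypes, so these values describe the 8 libraries and carry no test. By the same measure, the gene outside the list most like the members was Dysf at 0.986. Next came Lamb1, Stard8, Bdkrb2, Gja1, Lama4, Ddah2, Thbs1, Sgk1 and Gng11, the last at 0.969. Of these 10, 0 stood on the further endothelial list. That list holds only 26 of the 16333 measured genes, so this says nothing of the cell type of the 10.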

How the data were processed

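RNA of 8 islet cultures was sequenced. Per the submitters' processing notes, HISAT2, HTSeq, DESeq2 and the build GRCm38 were used, with no versions or roles given; whether libraries keep strand is not given there. The files are 4 tables, each a comparison fitted by the authors. The deposited signal columns are group means, or means over all libraries, of reads per size factor. The deposited log2 fold change and score, a Wald statistic, come from the authors' model, and the standard error was taken as their ratio. The deposited p-values and their Benjamini-Hochberg adjustment cover all 16333 genes. The genotype called Mut there was taken as wild type, being the remaining one.

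A deposited group mean is a sum of 2 whole numbers, each times the value of 1 read, and the reads of single libraries were recovered for 16308 genes (99.85%), with a largest relative deviation of 5.5e-15 of the mean over all libraries. The recovery was tested on simulated data. Libraries were told apart by Uty and Xist, so their replicate numbers are not known. The insulin and amylin genes were not recovered. Limma 3.58.1 (voom) in R 4.3.3 was fitted to these reads. The pairing of treated and untreated libraries comes from the design, since islets of each mouse were split. Their deviations from the group means correlated at 0.675 in KO and 0.699 in WT mice. Between KO and WT mice of the same sex, which are different mice, the correlation was 0.496 treated and 0.501 untreated. A part of the correlation can thus come with sex and not with the mouse. A count of 2 per group limits precision. In limma with the mouse as a replicate block, p-values rest on the spread within mice. The other limma fits treat the 2 cultures of a mouse as independent libraries.

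The authors' adjusted p below 0.05 was the main call. The rule for full values took the 2 highest members per length of each role, the 2 smallest p of each comparison, members called by any fit and the member of widest spread; other members are given after it. Exon lengths came from GENCODE M21. The members, lists and tests were chosen with earlier results of these data known.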

Additional observations from a re-analysis of the deposited data

Results flagged for a closer look

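The summed level of the 37 endothelial marker genes was lower with cytokines than untreated in both KO mice and higher in both WT mice. The log2 ratios, cytokine over untreated, were -0.0186 in the female and -0.16 in the male KO mouse, against 0.40 in the female and 0.0198 in the male WT mouse. The further endothelial list of 26 genes had the same signs, with -0.0226 and -0.0942 in the female and male KO mice, against 0.35 and 0.0468 in the female and male WT mice. In KO islets the direction turned with the summary used: the median of log2 counts in place of the sum gave 0.0757 over both KO mice, against -0.0825 for the sum, and the female KO mouse had 19 of the 37 members higher with cytokines, with a median log2 ratio of 0.0080. The difference between genotypes in these sums was not tested, and 2 of the 4 ratios in each list lie close to 0.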

How the results depend on the processing

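For KO over WT with cytokines, the authors' table called 11 members, against 0.998% of all genes. At an unadjusted p below 0.05 it had 19 members, against 960 of all 16333 genes. At an adjusted p below 0.1 it had 13, and the share over all genes was not computed for that threshold. Limma without a replicate block called 0 members with either scaling, against 2 of 16308 genes. With mouse sex as a replicate block it called 13, against 3.6% of all genes. Untreated, 10 members passed an unadjusted p below 0.05, against 798 of all 16333 genes. The fit with sex as a replicate block called 1 member untreated, against 1.7% of all genes. In WT islets 2 members passed an unadjusted p below 0.05 for cytokines, against 0.918% of all genes. With 1 library left out, the number of members called by limma changed, counting the sex-block fits added after the data were seen. Such fits leave 1 library in a group, and the number called over all genes changed too. The median over members then ran from -0.86 to -0.41 for KO over WT with cytokines, from -0.48 to -0.13 untreated, from -0.31 to 0.061 for cytokines in KO islets and from 0.0899 to 0.33 for cytokines in WT islets. Taking the median of log2 counts in place of the sum gave a log2 ratio of -0.85 for KO over WT with cytokines, 0.52 for cytokines in WT islets and 0.0757 in KO islets, where the sum gave -0.0825; leaving out the member of the highest sum gave -0.62 for KO over WT with cytokines. The cause was not tested. Of 158 alternative values 125 moved by less than the spread or stayed within 1.5 times and 33 moved further. Many of the 125 set 0 calls beside 0 calls or left out a library that is not in the comparison. The tally is therefore no measure of how stable the results are. A comparison of member proteins was not run. Counts of 2 libraries a group, 1 mouse each per sex, limit every comparison.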
